A study of Mus musculus with 8 samples.

Results

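The response of Ikaros-deficient DN3 thymocytes to a gamma-secretase inhibitor was measured on 4 of the 8 Affymetrix mouse arrays of the series, chosen by their titles: 2 arrays of IkL/L cells treated with the inhibitor (GSI) and 2 of IkL/L cells treated with its vehicle, DMSO. GSI was MRK-003, given for 16 h at a concentration labelled as 5 mM, which could not be checked. IkL/L is a hypomorphic allele of Ikzf1, the gene of the transcription factor Ikaros, and the cells of both groups carry it. The other 4 arrays hold wild-type (WT) cells under the same treatments and are used here to estimate the spread and to test where the IkL/L response differs. Lineage-negative thymocytes were grown on OP9 DL1, stromal cells from bone marrow that display a Delta-like ligand of Notch. Lineage-negative, CD44-negative, CD25-positive cells were sorted from these cultures. The ages of the mice are not given in the sources used here. Nothing in the labels says that the 2 arrays of a group came from separate mice or cultures, so p-values measure the spread between these arrays, which may be technical.

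DN3 cells are precursors in the thymus that rearrange the T cell receptor beta locus and pause until a pre-T cell receptor forms. Notch1, activated by Delta-like ligands in the thymus, supports their survival, their growth and their commitment to the T lineage. Ligand binding exposes the receptor to an ADAM protease and then to gamma-secretase, which frees the intracellular domain to enter the nucleus, bind RBPJ and switch on genes such as Hes1, Dtx1, Ptcra and Myc. Inhibitors of gamma-secretase block that last cut. Ikaros is known to restrain Notch target genes in thymocytes, and mice that lack it develop T cell leukaemias.

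In total 18193 genes were tested with limma, and 3055 of them (16.8%) changed in IkL/L cells at a Benjamini-Hochberg adjusted p below 0.05, which is what "called", "rose" and "fell" mean here. Of these 1401 (7.7%) rose and 1654 (9.09%) fell, and 1766 (9.71%) changed by at least 2-fold, of which 798 (4.39%) rose and 968 (5.32%) fell. Rises of at least 4-fold were seen for 0.72% of all genes and falls for 0.753%, and 8-fold changes for 11 genes that rose (0.0605%) and 11 that fell (0.0605%). The 2 GSI arrays did not overlap the 2 DMSO arrays for 62.4% of all genes, so that an absence of overlap is common. The median log2 change of all genes was -0.05. Levels are log2 values of the array signal, so that a difference of 1 is a 2-fold change, and they are compared between arrays for the same gene, never between genes. The genes that fell included Notch targets, Myc and most of the listed genes of nucleotide and polyamine synthesis, ribosome assembly and DNA replication. Those that rose included Ccr9, Cdkn1a, MHC class II and lysozyme genes and several transcription factor genes of progenitors. Leaving out an IkL/L array lowered the count to 947 without DMSO replicate 1, 1330 without DMSO replicate 2, 1807 without GSI replicate 1 and 1080 without GSI replicate 2.

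Replicates of a group correlated with r between 0.975 and 0.993 across probe sets, and array medians lay between 5.25 and 5.33. On the IkL/L arrays the GAPDH 3' minus 5' probe set difference, which grows as the labelled RNA gets shorter, was 1.87 and 2.48 under DMSO and 3.09 and 3.03 under GSI, so it moved with the treatment. With this difference as a covariate 3200 genes were called, and the share that rose went from 45.9% to 61.3%. Its part in the results was not tested beyond the counts given with it as a covariate. The mean level of 21 stromal genes was 7.50 and 6.47 under DMSO and 7.62 and 6.91 under GSI, higher on the array numbered 1 in both groups.

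The sorted identity of the cells was checked on 14 measured genes of the sort and stage. Of these 4 rose (28.6%), 2 fell (14.3%) and 8 did not pass, where 7.7% of all genes rose and 9.09% fell. Rag1, Rag2 and Dntt, which DN3 cells express, rose. Cd4 rose as well, although it, Cd44 and the CD8 genes are on the list as genes that DN3 cells should lack. Those that fell were Il2ra, the gene of the sort marker CD25 (4.53-fold), and Ptcra (5.02-fold). On the 4 IkL/L arrays Thy1, a surface protein of thymocytes, lay between 12.53 and 12.89, and Bcl11b, a factor of T lineage commitment, between 12.79 and 13.29. Cd44, whose protein the sort excluded, lay between 5.83 and 7.0. Ikzf1 was at 11.14 and 11.19 under DMSO and 11.75 and 11.52 under GSI, against 11.95 and 12.17 in WT DMSO. Its change under GSI did not pass (0.47 ± 0.14, SE; limma, adjusted p = 0.0593), and whether its probe set reads the changed stretch of the gene is unknown. The coreceptor gene Cd4 was at 6.23 and 6.57 under DMSO and at 7.88 and 7.36 under GSI. It was higher on both GSI arrays (1.22 ± 0.25; limma, adjusted p = 0.0128), and the call was lost without DMSO replicate 1 or GSI replicate 1. Cd8a stood at 8.43 on GSI replicate 1 and between 6.31 and 6.55 on the other 3 arrays. Cd8b1 stood at 7.62 on that array and between 5.81 and 6.15 on the others. These CD8 genes, which mark later thymocytes, were thus high on a single array and did not pass.

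Promoter sequences were taken from RefSeq (GRCm38.p6) because the Notch cofactor RBPJ is known to bind GTGGGAA and the MYC-MAX dimer to bind CACGTG. The 250 bases before the annotated start were read on both strands. GTGGGAA was in 930 of 14452 tested genes with a promoter (6.44%), in 7.48% of those that rose and in 5.82% of those that fell. Among 12 Notch targets with a promoter it was found in 2, Hes5 and Hey2, and neither gene was called. CACGTG was in 8.73% of the tested genes, in 107 of 1123 that rose (9.53%) and in 158 of 1374 that fell (11.5%). A gene counted if any of its windows matched. Per single window, over all 32851 promoter windows, the shares were 5.42% for GTGGGAA and 6.02% for CACGTG, which do not compare directly with the shares of genes. The 4 windows printed here were picked after their values were seen, to show CACGTG, in capitals, before called genes of 4 lists. CACGTG was in 1 of 12 promoters of the Notch targets (8.33%), 2 of 30 of ribosome biogenesis (6.67%), 4 of 23 of polyamine and nucleotide synthesis (17.4%) and 3 of 11 of the MYC and MAX network (27.3%). Nrarp is a feedback inhibitor of Notch, Atic an enzyme of purine synthesis, Nop2 a nucleolar RNA methyltransferase and Mxd4 a repressor that pairs with MAX.
Nrarp: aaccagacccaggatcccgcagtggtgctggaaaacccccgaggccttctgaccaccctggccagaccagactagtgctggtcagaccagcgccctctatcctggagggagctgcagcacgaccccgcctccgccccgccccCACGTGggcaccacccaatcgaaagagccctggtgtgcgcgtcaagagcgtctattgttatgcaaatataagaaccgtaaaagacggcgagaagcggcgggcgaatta
Atic: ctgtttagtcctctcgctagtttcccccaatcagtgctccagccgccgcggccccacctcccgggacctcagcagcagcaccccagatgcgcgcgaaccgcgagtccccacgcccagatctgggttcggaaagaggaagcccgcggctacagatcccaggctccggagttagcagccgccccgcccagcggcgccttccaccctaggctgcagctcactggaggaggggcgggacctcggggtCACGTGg
Nop2: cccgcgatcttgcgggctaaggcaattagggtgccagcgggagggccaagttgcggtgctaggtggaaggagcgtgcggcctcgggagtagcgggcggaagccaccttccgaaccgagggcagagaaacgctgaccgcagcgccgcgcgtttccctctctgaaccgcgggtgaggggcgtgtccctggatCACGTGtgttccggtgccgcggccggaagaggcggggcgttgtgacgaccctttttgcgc
Mxd4: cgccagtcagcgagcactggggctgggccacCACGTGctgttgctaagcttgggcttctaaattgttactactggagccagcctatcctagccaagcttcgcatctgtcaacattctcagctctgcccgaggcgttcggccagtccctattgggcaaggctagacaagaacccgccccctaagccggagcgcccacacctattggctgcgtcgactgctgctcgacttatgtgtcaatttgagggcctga
The windows are chr2:25180508-25180757 for Nrarp, chr1:71556906-71557155 for Atic and chr6:125131633-125131882 for Nop2, all on the plus strand, and chr5:34187711-34187960 on the minus strand for Mxd4. The first base of the match lies at -108, -7, -60 and -219 from the start. The first 3 genes fell and Mxd4 rose, so the same letters stood before genes of both directions. Atic was at 10.05 and 10.41 under DMSO and at 8.27 and 7.23 under GSI (-2.48 ± 0.34; limma, adjusted p = 0.00276). Nop2 was at 9.45 and 9.15 under DMSO and at 7.66 and 7.67 under GSI (-1.63 ± 0.22; limma, adjusted p = 0.00274). A match describes the letters and says nothing about binding.

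The Notch receptor genes did not pass the test. Notch1 was at 13.19 and 13.34 under DMSO and at 13.32 and 13.26 under GSI. Notch3, which encodes a second receptor of thymocytes, was at 9.77 and 10.13 under DMSO and at 10.02 and 10.22 under GSI. The groups overlapped for both genes, with log2 changes of 0.02 ± 0.13 and 0.17 ± 0.30 (limma, adjusted p = 0.932 and 0.772). Their signs turned with the GAPDH difference as a covariate (-0.28 and -0.60), and that of Notch1 also when arrays were centred on their medians (-0.03). Of 21 genes of receptors, ligands and regulators 2 rose (9.5%, against 7.7% of all genes), Rbpj (0.52 ± 0.14) and the glycosyltransferase gene Lfng (0.69 ± 0.18). Both calls were lost without any single IkL/L array. Rbpj also lost its call without either WT DMSO array. Averaged over probe sets Rbpj was at 0.05 and Lfng at 0.38, and neither passed (limma, adjusted p = 0.879 and 0.0901). Of the 3 probe sets of Rbpj 1, the one used, was higher. Neither gene passed after median centring or with the GAPDH covariate. Of 7 gamma-secretase and ADAM genes 1 rose, the subunit gene Aph1b, which went from 5.62 and 5.55 to 6.30 and 6.72 (0.93 ± 0.18; limma, adjusted p = 0.0101). That call was lost without either DMSO array or without GSI replicate 2. Ncstn, the gene of the nicastrin subunit, was at 6.0 and 6.75 under DMSO and at 7.83 and 7.67 under GSI and did not pass (1.37 ± 0.52; limma, adjusted p = 0.12). Its sign turned with the GAPDH covariate (-0.11).

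Many direct targets of Notch fell. Of 17 measured targets 9 fell (52.9%, against 9.09% of all genes) and 8 did not pass. Their median was -1.51, where the median over all genes was -0.05. When a single IkL/L array was left out 8 or 9 fell. Because these are bulk samples, fewer cells of a type and less RNA per cell cannot be told apart. Dtx1, which encodes the ubiquitin ligase Deltex1 of the Notch pathway, was at 11.74 and 11.84 under DMSO and at 7.44 and 7.04 under GSI. The 2 groups lay far apart, and the difference of -4.55 ± 0.20 (SE; 23.4-fold; limma, adjusted p = 9.5e-05) was the largest decrease among the genes named here. Ptcra, the gene of the pre-T cell receptor alpha chain, was at 10.70 and 10.74 under DMSO and at 8.42 and 8.37 under GSI (-2.33 ± 0.15; limma, adjusted p = 0.00044). Il2ra, which encodes the CD25 by which the cells were sorted, was at 11.69 and 11.57 under DMSO and at 9.49 and 9.42 under GSI (-2.18 ± 0.15; limma, adjusted p = 0.00049). Replicates of Ptcra and Il2ra nearly coincided, and those of Dtx1 did so under DMSO only. The 2 treatments did not overlap for these genes, as for 62.4% of all genes.

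Other regulators of the pathway had smaller or less even differences. Nrarp was at 8.76 and 8.49 under DMSO and at 6.97 and 7.25 under GSI (-1.51 ± 0.22; limma, adjusted p = 0.0035). Hes1, the classic repressor gene downstream of Notch, was at 10.06 and 9.57 under DMSO and at 7.53 and 8.83 under GSI. Both GSI arrays lay below both DMSO arrays, but they differed from each other, and the gene did not pass (-1.63 ± 0.48; limma, adjusted p = 0.0543). Hes1 passed without GSI replicate 2, without either WT GSI array and with arrays centred on their medians, and its value was -0.60 with the GAPDH covariate. Another target that fell was Ccnd3, a D cyclin gene (-1.82 ± 0.26), which did not pass averaged over its probe sets (-0.38; limma, adjusted p = 0.223). The pseudokinase gene Trib2 (-2.32 ± 0.35), Fjx1 (-1.97 ± 0.23) and the repressor gene Heyl (-1.51 ± 0.32), named after their values were seen, fell too. Heyl lost its call without any single IkL/L array. Fjx1 was at 8.08 and 7.75 under DMSO and at 6.10 and 5.79 under GSI, while in WT cells it lay between 5.20 and 5.62 on all 4 arrays. The difference of its responses between the genotypes did not pass (limma, adjusted p = 0.181). Hes5 (-0.32), Hey1 (-0.07) and Il7r (0.12) were among the targets that did not pass.

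**Figure D1:**
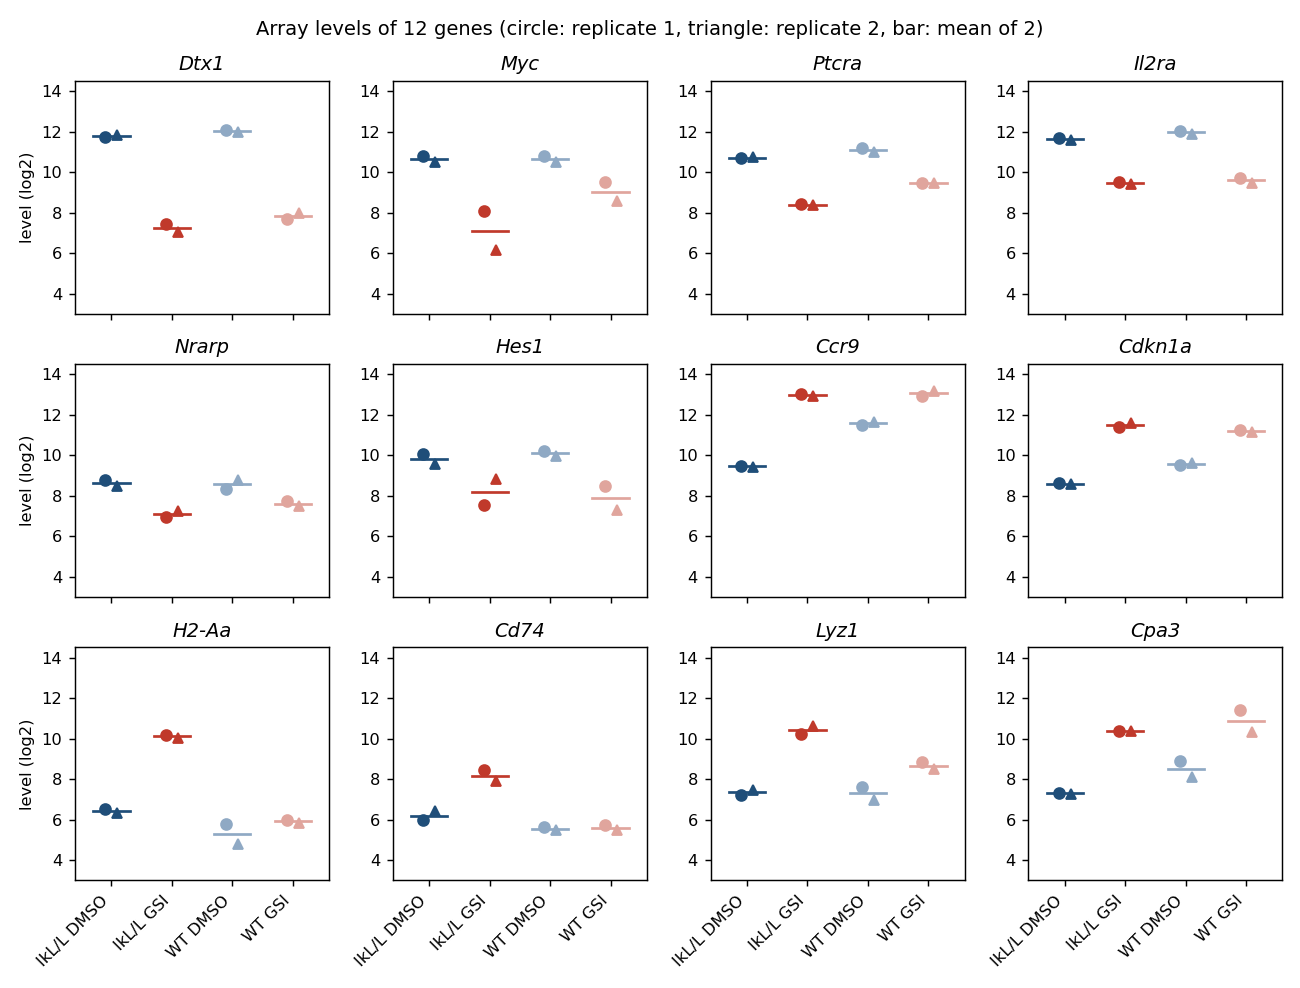
Log2 level of 12 genes on each array, by group on the horizontal axis; circles are replicate 1, triangles replicate 2 and bars the mean of 2 arrays. Dtx1 goes from 11.74 and 11.84 to 7.44 and 7.04 in IkL/L cells, the 2 GSI arrays of Myc (8.09 and 6.14) lie apart, and Ccr9 starts lower in IkL/L DMSO (9.49 and 9.44) than in WT DMSO.

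Myc, the transcription factor gene that links Notch to growth in T cell precursors, was at 10.79 and 10.50 under DMSO and at 8.09 and 6.14 under GSI. The fall of -3.53 ± 0.57 (11.6-fold; limma, adjusted p = 0.00496) exceeded the spread, although the 2 GSI arrays differed by more than the 2 DMSO arrays, and the gene stayed called whichever of the 8 arrays was omitted. WT cells had a change of -1.61, and the difference between the genotypes did not pass (limma, adjusted p = 0.822). Of 12 genes of the MYC and MAX network 3 fell and 3 rose, with a median of 0.13. Besides Myc, the genes that fell were its partner Max (-1.08 ± 0.20) and Mxd3 (-1.01 ± 0.19). Those that rose were Mxd4, Mxd1 (1.06 ± 0.26) and Mlxip (0.70 ± 0.18). Mxd1, Mxd3 and Mxd4 encode MAX partners that repress where MYC activates, so genes of these repressors moved both ways. Averaged over its probe sets Mxd1 was at 0.44 and did not pass (limma, adjusted p = 0.0654). Mxd4 was at 8.60 and 8.68 under DMSO and at 10.75 and 10.99 under GSI (2.23 ± 0.19; 4.7-fold; limma, adjusted p = 0.00078). Mxd4 and Myc were called without each array in turn, while Mxd1, Mxd3 and Mlxip lost their calls without any single IkL/L array and Max without either DMSO array or GSI replicate 2.

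Genes that build ribosomes fell as a group. Of 36 ribosome biogenesis genes, which work in rRNA transcription, modification and assembly, 34 fell and 2 did not pass, against 9.09% of all genes that fell, and their median was -1.69. Nolc1, a nucleolar phosphoprotein gene, was at 11.23 and 11.14 under DMSO and at 8.79 and 8.16 under GSI (-2.71 ± 0.30; 6.56-fold; limma, adjusted p = 0.0013). Polr1b, a subunit gene of RNA polymerase I, was at 8.95 and 8.46 and then at 6.51 and 5.93 (-2.49 ± 0.38; limma, adjusted p = 0.00414). Nop58, a core protein of the box C/D particles that methylate rRNA, was at 11.36 and 10.64 and then at 9.02 and 7.76 (-2.61 ± 0.56; limma, adjusted p = 0.0156). For Nop58 the replicates of both treatments differed from each other by more than in the other 2 genes. Nop58 lost its call without DMSO replicate 1 or GSI replicate 2. Of the list 17 fell without DMSO replicate 1, 24 without DMSO replicate 2, 25 without GSI replicate 1 and 20 without GSI replicate 2, and 24 fell with the GAPDH covariate. Genes of the proteins that make up the ribosome were counted apart. Of 22 cytosolic ribosomal protein genes 1 fell (4.5%), Rpl14 (-1.48 ± 0.20; limma, adjusted p = 0.00282), and their median was -0.05. Rps6 (-0.64 ± 0.23) and Rpl37 (-0.42 ± 0.16) had the next largest changes and did not pass. Averaged over probe sets 2 genes of this list fell. For Rps20, named after its values were seen, 2 of 4 probe sets were called in the direction opposite to the one used. The changes of those 4 ran from -1.55 to 0.15.

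Synthesis of polyamines and nucleotides followed the same direction. Of 26 measured genes 21 fell (80.8%, against 9.09% of all genes) and 5 did not pass, with a median of -1.51. Srm, spermidine synthase, was at 11.47 and 11.24 under DMSO and at 8.02 and 7.36 under GSI (-3.67 ± 0.32; 12.7-fold; limma, adjusted p = 0.0008). Cad, which starts pyrimidine synthesis, was at 10.09 and 10.36 and then at 7.48 and 6.71 (-3.13 ± 0.27; 8.77-fold; limma, adjusted p = 0.00077). Shmt2, the mitochondrial enzyme that supplies one-carbon units from serine, was at 11.40 and 11.22 and then at 8.69 and 8.21 (-2.86 ± 0.26; limma, adjusted p = 0.00084). The treatments were separated by more than the gap between replicates in each of these genes, and all 4 probe sets of Shmt2 and all 3 of Cad had lower means under GSI. Odc1, the enzyme before Srm in the polyamine pathway, was named after its values were seen because it did not pass (-0.76 ± 0.32; limma, adjusted p = 0.153). With a single IkL/L array left out 16, 16, 18 and 14 of the list fell, in the order DMSO replicates 1 and 2 and GSI replicates 1 and 2.

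Genes that charge tRNA, carry amino acids and run glycolysis were lower in part. Of 19 aminoacyl-tRNA synthetase genes 11 fell (median -0.88), led by the threonyl, glycyl and arginyl enzymes Tars (-1.34 ± 0.28), Gars (-1.33 ± 0.24) and Rars (-1.30 ± 0.34). Without one IkL/L array that count was between 1 (DMSO replicate 1 or GSI replicate 2) and 3 (DMSO replicate 2), and it was 2 without GSI replicate 1 and 3 with the GAPDH covariate. Of 13 amino acid transporter genes 4 fell (30.8%) and 2 rose (15.4%), against 9.09% and 7.7% of all genes. Slc7a5, the light chain of the large neutral amino acid transporter, was at 9.04 and 9.0 under DMSO and at 7.10 and 7.51 under GSI (-1.72 ± 0.23; limma, adjusted p = 0.00269). The cystine transporter gene Slc7a11 went the other way, from 3.97 and 4.25 to 5.67 and 5.49 (1.47 ± 0.16; limma, adjusted p = 0.0014). Both were called without each array in turn. The others called were Slc7a6 (-1.17), the glutamine transporter gene Slc1a5 (-1.11), the arginine transporter gene Slc7a1 (-0.75) and the lysosomal sensor gene Slc38a9 (1.76), each of which lost its call without DMSO replicate 1. Leaving out DMSO replicate 1 or 2 or GSI replicate 1 or 2 left 1, 3, 4 and 2 transporter genes that fell and 1 that rose each time.

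Of 18 glycolysis and glucose transport genes 7 fell (38.9%) and 2 rose (11.1%), with a median of -0.60. Of all genes 9.09% fell and 7.7% rose. Hk2, the inducible hexokinase gene, was at 9.28 and 9.01 under DMSO and at 5.84 and 5.69 under GSI (-3.38 ± 0.30; 10.4-fold; limma, adjusted p = 0.0008). Pfkp, a phosphofructokinase gene, was at 9.96 and 9.73 and then at 8.25 and 7.85 (-1.79 ± 0.22; limma, adjusted p = 0.00171). These 2 control enzymes of the pathway were called without each array in turn. Pgam1 fell by 1.90 ± 0.35 on the log2 scale and lost its call without DMSO replicate 1 or GSI replicate 2. The genes that rose, Aldoc (1.78 ± 0.47) and Pdk1 (0.48 ± 0.14), lost theirs without any single IkL/L array. The count that fell was 2 without DMSO replicate 1, 4 without DMSO replicate 2, 5 without GSI replicate 1 and 2 without GSI replicate 2.

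Of 17 cholesterol synthesis genes 5 fell (29.4%) and 1 rose (5.9%), with a median of -0.48. Of all genes 9.09% fell and 7.7% rose. The isomerase gene Idi1 was at 12.00 and 11.89 under DMSO and at 10.87 and 10.57 under GSI (-1.22 ± 0.18; limma, adjusted p = 0.00351) and kept its call without each array. Pmvk (-1.16), Sc5d (-1.01), Cyp51 (-0.97) and Lss (-0.93) also fell and Dhcr7 rose (0.85), but these calls depended on single arrays: 1 of the list fell without DMSO replicate 1 or either GSI array and 2 without DMSO replicate 2. Among 19 chaperone genes 12 fell (63.2%, median -0.75). The largest falls were those of Hsph1, a co-chaperone gene (-2.26 ± 0.21), the mitochondrial chaperonin gene Hspd1 (-2.03 ± 0.23) and Cct8, a subunit of the cytosolic chaperonin (-1.38 ± 0.20). Their adjusted p in limma was 0.00088, 0.00135 and 0.00338. Without DMSO replicates 1 and 2 and GSI replicates 1 and 2 in turn 4, 7, 7 and 6 chaperone genes fell. Of 22 respiratory chain genes 8 fell (36.4%, median -0.45), led by the cytochrome c gene Cycs. Cycs was at 12.82 and 12.77 under DMSO and at 11.69 and 11.28 under GSI (-1.31 ± 0.15; limma, adjusted p = 0.00153). Ndufa4 (-1.12 ± 0.18) and Sdhb (-0.81 ± 0.21) followed. Between 1 and 3 respiratory chain genes fell without one of the IkL/L arrays, with 1 without DMSO replicate 1 or GSI replicate 2.

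**Figure D2:**
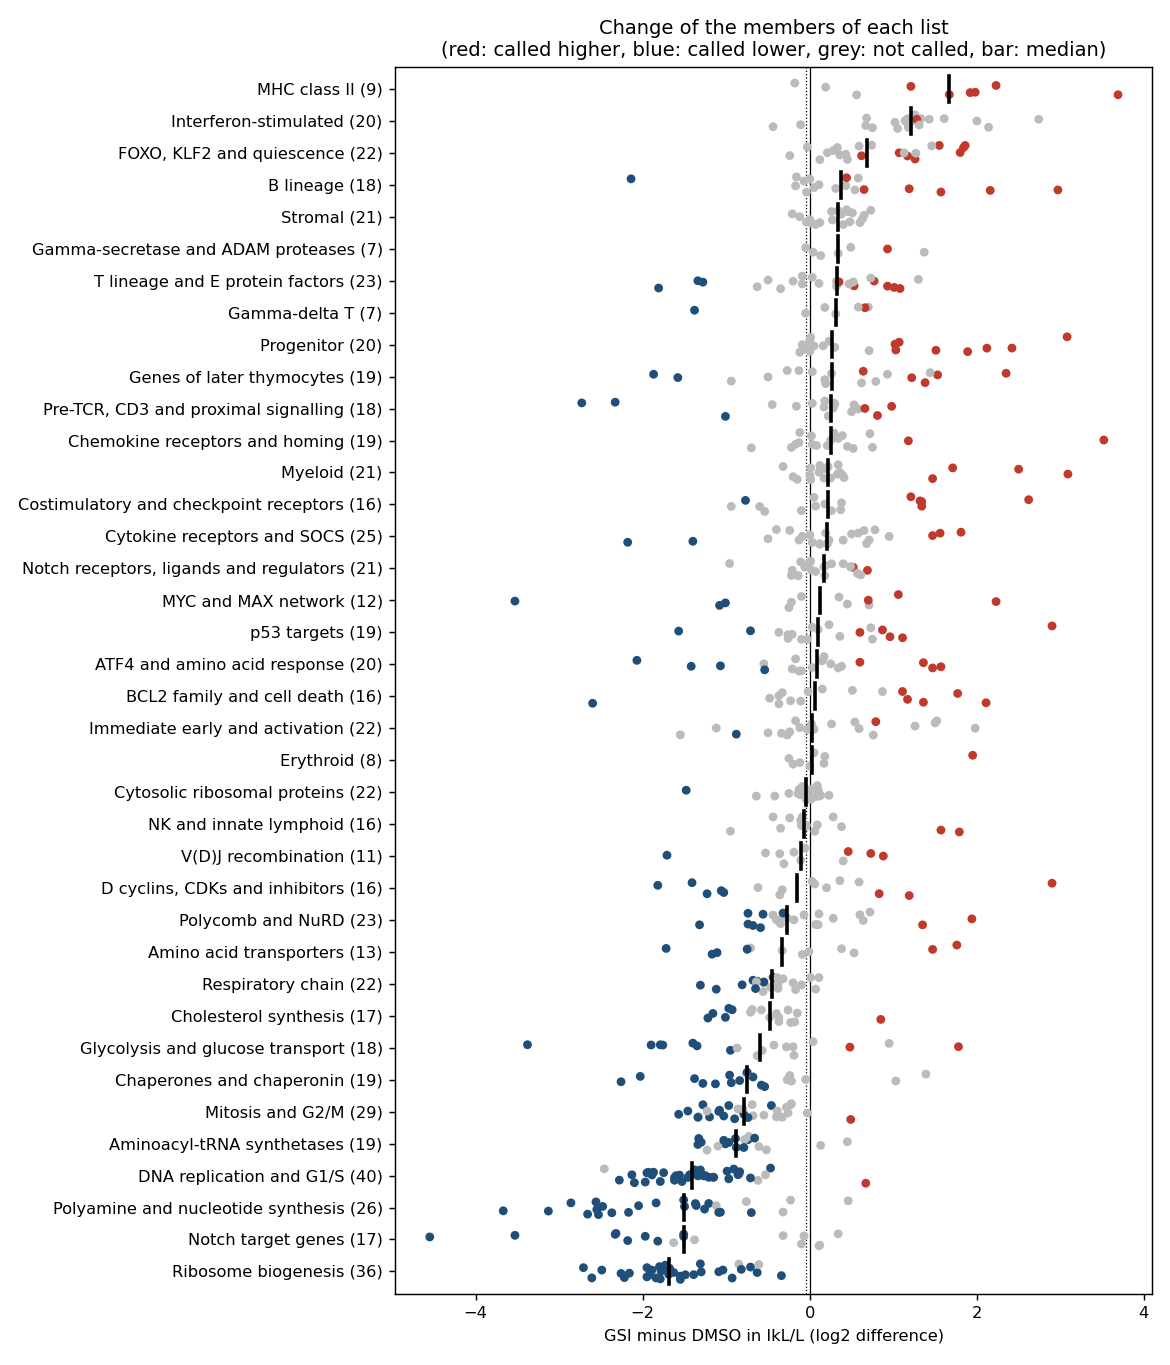
Log2 difference between GSI and DMSO in IkL/L cells of each measured member of the gene lists, ordered by the list median (bar), with the number of genes in parentheses; red points rose, blue points fell, grey points did not pass, and the dotted line is the median of all genes. Ribosome biogenesis, with 34 of 36 genes that fell, lies at the lower end and MHC class II, with a median of 1.67, at the upper end.

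Most listed genes of DNA replication fell. Of 40 genes of replication and the G1/S transition 35 fell (87.5%), 1 rose (2.5%) and 4 did not pass (median -1.41). Of all genes 9.09% fell and 7.7% rose. Cdc6, which loads the replicative helicase, was at 11.12 and 10.91 under DMSO and at 8.98 and 8.50 under GSI (-2.28 ± 0.29; limma, adjusted p = 0.00216). Gins1, a helicase subunit gene, was at 10.93 and 10.90 and then at 8.94 and 8.70 (-2.10 ± 0.16; limma, adjusted p = 0.00051). Both were separated far beyond the gap between replicates and kept their calls without each array. Ccne1, the cyclin E1 gene, was at 9.53 and 9.80 and then at 8.05 and 7.01 (-2.13 ± 0.52) and lost its call without either DMSO array or GSI replicate 2. The member that rose was the primase subunit gene Prim2 (0.67 ± 0.16), lost without any single IkL/L array. The count that fell was 20 without DMSO replicate 1, 28 without DMSO replicate 2, 33 without GSI replicate 1 and 25 without GSI replicate 2. Of 29 mitotic genes 13 fell (44.8%), 1 rose (3.4%) and 15 did not pass (median -0.79). The difference between the 2 lists was not tested. Aurkb, the kinase gene of the chromosomal passenger complex, was at 10.67 and 10.62 and then at 9.24 and 8.91 (-1.57 ± 0.22; limma, adjusted p = 0.00291). Kif20a (-1.46 ± 0.24) and Birc5 (-1.34 ± 0.23) fell too, and the securin gene Pttg1 rose (0.49 ± 0.12). With DMSO replicates 1 and 2 and GSI replicates 1 and 2 left out in turn 3, 5, 9 and 3 mitotic genes fell, and the calls of Kif20a, Birc5 and Pttg1 were lost without DMSO replicate 1.

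The cyclins, kinases and inhibitors that set the G1 phase moved both ways. Cdkn1a, the gene of the CDK inhibitor p21, was at 8.64 and 8.56 under DMSO and at 11.42 and 11.58 under GSI. The 2 treatments were separated by many times the gap between replicates (2.90 ± 0.15; 7.45-fold; limma, adjusted p = 0.00015). Ccnd3 was at 11.60 and 11.44 and then at 9.90 and 9.49 (3.53-fold lower; limma, adjusted p = 0.00336), but averaged over its probe sets it did not pass (-0.38; limma, adjusted p = 0.223). Of its 3 probe sets 2 shared the sign, and the changes of the 3 ran from -1.82 to 1.42. Of the 16 genes of this list 5 fell (31.2%) and 3 rose (18.8%), against 9.09% and 7.7% of all genes. Cdk4 (-1.23 ± 0.26) and the inhibitor gene Cdkn2c (-1.41 ± 0.32) fell, while Ccnd2 (1.19 ± 0.25) and Cdk6 (0.83 ± 0.23) rose. Ccnd2 was at 10.61 and 9.86 under DMSO and at 11.23 and 11.62 under GSI. Cdkn1a and Ccnd3 were called without each array in turn. Cdk4 and Cdkn2c lost their calls without either DMSO array or GSI replicate 2, Ccnd2 without DMSO replicate 2 or GSI replicate 2, and Cdk6 without any single IkL/L array. The numbers that fell were 1, 1, 6 and 1 without DMSO replicates 1 and 2 and GSI replicates 1 and 2, and the numbers that rose 2, 1, 2 and 1.

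Part of the genes activated by FOXO factors or tied to quiescence rose. Of 22 measured genes 8 rose and 14 did not pass, against 7.7% of all genes, and their median was 0.68. Pik3ip1, an inhibitor of PI3 kinase, was at 10.02 and 9.78 under DMSO and at 11.68 and 11.80 under GSI (1.84 ± 0.17; 3.59-fold; limma, adjusted p = 0.00084). Klhl24 was at 9.61 and 9.69 and then at 11.31 and 11.60 (1.80 ± 0.17; limma, adjusted p = 0.00092). Tsc22d3, which encodes the glucocorticoid-induced protein GILZ, was at 7.45 and 7.34 and then at 9.48 and 9.03 (1.86 ± 0.41; limma, adjusted p = 0.0178). All 3 genes were higher on both GSI arrays, and Tsc22d3 lost its call without any single IkL/L array. Averaged over its 4 probe sets Tsc22d3 was at 0.73 and did not pass (limma, adjusted p = 0.128). Bcl6 (1.55), Klf3 (1.17) and Foxo3 (1.07), named after their values were seen, also rose. Bcl6 kept its call without each array, Klf3 lost it without GSI replicate 2 and Foxo3 without any single IkL/L array. Klf2, a factor of naive T cells, was at 4.82 and 4.72 and then at 4.71 and 4.35 and did not pass. The count that rose was 4 without DMSO replicate 1, 5 without DMSO replicate 2, 4 without GSI replicate 1 and 3 without GSI replicate 2.

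Transcription factor genes of the T lineage rose or fell one by one. Of 23 measured 6 rose (26.1%), 3 fell (13.0%) and 14 did not pass, with a median of 0.32. Of all genes 7.7% rose and 9.09% fell. Lef1, a factor that acts with beta-catenin in early T cells, was at 11.70 and 12.00 under DMSO and at 10.27 and 9.81 under GSI (-1.81 ± 0.18; 3.51-fold; limma, adjusted p = 0.00103), and its call was kept without each array. Id3, an inhibitor of E proteins, was at 10.29 and 10.00 and then at 9.11 and 8.50 (-1.34 ± 0.23; limma, adjusted p = 0.00615). In WT cells the changes were -0.42 for Lef1 and 0.08 for Id3, and neither difference between the genotypes passed (limma, adjusted p = 0.271 and 0.439). Of the other Ikaros family genes Ikzf3 (Aiolos) fell (-1.28 ± 0.33) and Ikzf2 (Helios) rose (1.01 ± 0.28). Runx1 (0.93 ± 0.16) and Nfatc1 (1.08 ± 0.21) rose on the probe set that stood for each gene. The other 4 of 5 probe sets of Nfatc1 did not share its sign, and averaged over probe sets it was at 0.17 (limma, adjusted p = 0.634). Runx1 (0.47), Ikzf2 (0.93) and Ikzf3 (-0.67) did not pass either when averaged (limma, adjusted p = 0.0896, 0.051 and 0.11), and 1 gene of the list rose and 2 fell in that fit. The commitment factor genes Bcl11b (0.32) and Gata3 (0.11) did not pass. Id3 lost its call without DMSO replicate 1, Runx1 without DMSO replicate 2, Ikzf2 without any single IkL/L array, and Ikzf3 and Nfatc1 without either DMSO array or GSI replicate 2. The list held 1, 1, 4 and 1 genes that rose and 1, 2, 3 and 2 that fell without DMSO replicates 1 and 2 and GSI replicates 1 and 2.

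The genes of the pre-T cell receptor and its signalling did not move as one. Of 18 genes 3 rose and 3 fell (median 0.25), 16.7% each, against 7.7% and 9.09% of all genes. Besides Ptcra, those that fell were the adhesion gene Cd2 and Zap70, the kinase gene of proximal signalling (-1.01 ± 0.17). Cd2 was at 9.01 and 8.54 under DMSO and at 6.95 and 5.15 under GSI, with GSI arrays further apart than the DMSO arrays (-2.73 ± 0.56; limma, adjusted p = 0.0131). Those that rose were Plcg1 (0.98 ± 0.17), the zeta chain gene Cd247 (0.81 ± 0.18) and Themis (0.66 ± 0.14), by less than 2-fold each. Every one of these calls apart from that of Ptcra was lost without DMSO replicate 1, so that 1 gene of the list fell and none rose in that fit, and none rose without GSI replicate 2. At an unadjusted p below 0.05 with all arrays 6 rose and 4 fell. Of 11 genes of V(D)J recombination 3 rose (27.3%) and 1 fell (9.1%). Rag1 was at 11.71 and 11.99 under DMSO and at 12.95 and 12.52 under GSI (0.88 ± 0.20; limma, adjusted p = 0.0199), and Rag2 changed by 0.73 ± 0.19. Both encode the recombinase, both were higher on the GSI arrays, and both calls were lost without either DMSO array or without GSI replicate 1, that of Rag2 also without GSI replicate 2. Dntt, the terminal transferase gene, rose from 13.42 and 13.40 to 13.92 and 13.82, a small change with close replicates (0.46 ± 0.07; limma, adjusted p = 0.00406). Xrcc5, which encodes the Ku80 repair protein, fell from 9.24 and 9.0 to 7.60 and 7.21 (-1.71 ± 0.26; limma, adjusted p = 0.00418). These last 2 calls were kept without each array in turn. Dntt averaged over its probe sets was at 0.39 and did not pass (limma, adjusted p = 0.0679).

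Of 19 genes of later thymocytes 5 rose (26.3%) and 2 fell (10.5%), with a median of 0.26. Of all genes 7.7% rose and 9.09% fell. Cd53, a tetraspanin gene, was at 8.99 and 9.01 under DMSO and at 11.01 and 11.68 under GSI (2.35 ± 0.22; 5.09-fold; limma, adjusted p = 0.00088). Cd52, a small surface glycoprotein gene, was at 7.59 and 7.70 and then at 9.30 and 9.06 (1.53 ± 0.18; limma, adjusted p = 0.00147). Cd6, a receptor of maturing T cells, moved in the other direction, from 8.30 and 8.41 to 6.88 and 6.09 (-1.87 ± 0.29; limma, adjusted p = 0.0041). Each of the 3 was called without each array in turn. The related gene Cd5 fell (-1.58 ± 0.38) and the class I gene H2-K1 rose (1.38 ± 0.26). Both calls were lost without either DMSO array or GSI replicate 2, and that of H2-K1 also without GSI replicate 1. Probes for H2-K1 can also detect its close paralogues. Without DMSO replicates 1 and 2 and GSI replicates 1 and 2 in turn 2, 3, 2 and 5 of the list rose and 1, 1, 3 and 1 fell.

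Of the surface receptors, Ccr9, the chemokine receptor that guides precursors in the thymus and gut, rose most among the genes of the receptor lists. It was at 9.49 and 9.44 under DMSO and at 13.03 and 12.93 under GSI, a rise of 3.52 ± 0.13 (11.4-fold; limma, adjusted p = 4.5e-05) that all 5 of its probe sets shared. In WT cells it went from 11.52 and 11.63 to 12.94 and 13.20, so that the GSI arrays of both genotypes lay between 12.93 and 13.20 and the IkL/L DMSO arrays below the WT DMSO arrays. Of 19 chemokine receptor and homing genes 2 rose (10.5%, against 7.7% of all genes). The one besides Ccr9 was Selplg, the P-selectin ligand gene (1.18 ± 0.24), a call lost without either DMSO array or GSI replicate 2. Of 16 costimulatory and checkpoint genes 5 rose (31.2%) and 1 fell (6.2%, against 9.09% of all genes). Ctla4, an inhibitory receptor of T cells, was at 7.93 and 7.95 and then at 10.24 and 10.88 (2.62 ± 0.27; 6.16-fold; limma, adjusted p = 0.00112). Icos was at 5.86 and 5.96 and then at 7.10 and 7.13 (1.21 ± 0.18; limma, adjusted p = 0.00391). Both genes were called without each array in turn. Cd200 (1.34), Cd96 (1.34) and Tnfrsf18 (1.32) rose and Cd160 fell (-0.77), but these 4 calls were lost without DMSO replicate 1 or GSI replicate 2. The numbers that rose were 2, 3, 5 and 2 without DMSO replicates 1 and 2 and GSI replicates 1 and 2.

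Of 25 cytokine receptor and SOCS genes 3 rose (12.0%) and 2 fell (8.0%), near the 7.7% and 9.09% of all genes. Besides Il2ra, the gene that fell was Il12rb2, a subunit of the interleukin-12 receptor, from 5.17 and 4.97 to 3.94 and 3.40 (-1.40 ± 0.18; limma, adjusted p = 0.00235). Ifnar1, a chain of the type I interferon receptor, rose from 7.93 and 7.77 to 9.19 and 9.63 (1.56 ± 0.21; limma, adjusted p = 0.0025). These 2 calls were kept without each array. Ifngr1 (1.47 ± 0.28) and Socs3 (1.81 ± 0.40) rose as well, and each lost its call without either DMSO array or GSI replicate 2, Socs3 also without GSI replicate 1, so that 1 to 2 genes of the list rose in those fits. Of 20 interferon-stimulated genes 1 rose (5.0%), the RNA sensor gene Ddx58 (1.28 ± 0.37; limma, adjusted p = 0.0494), although their median was 1.21. Their mean level was 7.87 and 6.97 under DMSO and 8.98 and 8.20 under GSI, higher under GSI but also different between replicates. Oasl2, for example, was at 8.37 and 6.78 under DMSO and at 10.85 and 9.77 under GSI and did not pass (2.74 ± 1.06; limma, adjusted p = 0.126). The mean was higher on the array numbered 1 in all 4 groups, with 8.75 and 7.16 in WT DMSO and 9.90 and 8.38 in WT GSI. With the stromal mean as a covariate 13 of them rose, with the GAPDH covariate 17 and in a fit of the IkL/L arrays alone 9, and Ddx58 lost its call without any single IkL/L array.

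Several genes of uncommitted progenitors rose in the IkL/L cells. Of 20 measured 8 rose and 12 did not pass, against 7.7% of all genes, with a median of 0.27. Cpa3, a mast cell and progenitor protease gene, was at 7.30 and 7.28 under DMSO and at 10.38 and 10.36 under GSI (3.08 ± 0.37; 8.44-fold; limma, adjusted p = 0.00169). Nfe2, a factor of megakaryocyte precursors, was at 5.31 and 5.15 and then at 7.04 and 8.25 (2.42 ± 0.37; limma, adjusted p = 0.0041). Erg, an ETS factor of stem cells, was at 5.82 and 5.39 and then at 7.49 and 7.96 (2.12 ± 0.28; limma, adjusted p = 0.00259). The calls of these 3 genes were kept without each array. The other genes that rose were Cd93 (1.89), the stem cell factor receptor gene Kit (1.51), Lyl1 (1.07), Mef2c (1.03) and Tal1 (1.02), listed here after their values were seen. Cd93 kept its call without each array, Kit lost it without DMSO replicate 1 or GSI replicate 2, and the last 3 without either DMSO array or GSI replicate 2. Cd34, Flt3, Hoxa9 and Spi1, also genes of early progenitors, were among the 12 not called. Cd34 lay between 3.08 and 3.33, Flt3 between 5.17 and 5.31, Hoxa9 between 4.97 and 5.10 and Spi1 between 5.41 and 5.68 on the 4 arrays, with overlap between treatments. Without DMSO replicates 1 and 2 and GSI replicates 1 and 2 in turn 4, 5, 8 and 4 of the list rose.

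Most MHC class II genes, which present antigen and are low in mouse T cells, rose. Of 9 measured 6 rose (66.7%, against 7.7% of all genes) and 3 did not pass, with a median of 1.67. H2-Aa, an alpha chain gene, was at 6.50 and 6.33 under DMSO and at 10.19 and 10.04 under GSI (3.69 ± 0.30; 12.9-fold; limma, adjusted p = 0.00064), and all 4 of its probe sets rose. H2-Eb1, a beta chain gene, was at 5.55 and 5.13 and then at 7.88 and 7.26 (2.23 ± 0.23; limma, adjusted p = 0.00114). Cd74, the invariant chain gene, was at 5.98 and 6.40 and then at 8.44 and 7.90 (1.98 ± 0.24; limma, adjusted p = 0.00167). The 2 treatments did not overlap in any of these genes, as for 62.4% of all genes. The WT changes were 0.61 for H2-Aa, 0.21 for H2-Eb1 and 0.06 for Cd74, and the differences between the genotypes did not pass (limma, adjusted p = 0.0959, 0.174 and 0.219). H2-Ob (1.92), H2-DMa (1.67) and H2-Ab1 (1.21) also rose. Their WT changes were 1.42, 1.33 and 0.11, of which those of H2-Ob and H2-DMa passed (limma, adjusted p = 0.0219 and 0.0381). The differences between the genotypes did not pass for these genes either (limma, adjusted p = 0.902, 0.944 and 0.672). Ciita, the gene of the class II master regulator, lay between 4.07 and 4.35 on the 4 arrays and did not pass (-0.18). H2-Ab1 lost its call without any single IkL/L array and H2-DMa without DMSO replicate 2 or GSI replicate 2, and 5, 4, 5 and 4 of the list rose without DMSO replicates 1 and 2 and GSI replicates 1 and 2.

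Myeloid genes rose in 4 of 21 cases (19.0%, against 7.7% of all genes). Lyz1 was at 7.22 and 7.46 under DMSO and at 10.22 and 10.64 under GSI (3.09 ± 0.27; 8.51-fold; limma, adjusted p = 0.00078). Lyz2 was at 5.96 and 6.23 and then at 8.42 and 8.78 (2.50 ± 0.26; limma, adjusted p = 0.00116). The 2 lysozyme genes are near copies, and their probe sets may share signal. S100a8 (1.71 ± 0.26) and S100a9 (1.47 ± 0.16) encode the 2 chains of calprotectin and rose together. All 4 calls were kept without each array in turn. The mean level of the 21 genes was 4.91 and 4.93 under DMSO and 5.49 and 5.40 under GSI. Among the 17 not called, Mpo lay between 3.94 and 4.04, Itgam between 2.78 and 3.27, Cebpa between 3.91 and 4.09 and Csf1r between 5.49 and 5.86. The part of a few myeloid cells in these rises was not tested.

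B lineage genes rose in 6 of 18 cases (33.3%) and 1 fell (5.6%), against 7.7% and 9.09% of all genes. Spib, an ETS factor gene of B and dendritic cells, was at 6.05 and 6.19 under DMSO and at 8.79 and 9.39 under GSI (2.97 ± 0.23; 7.82-fold; limma, adjusted p = 0.00051). Vpreb1, a surrogate light chain gene, was at 6.58 and 6.90 and then at 8.64 and 9.16 (2.16 ± 0.25; limma, adjusted p = 0.00151). Both calls were kept without each array in turn. Cd79b rose as well (1.57 ± 0.30) and lost its call without either DMSO array or GSI replicate 2. Pou2af1, the gene of the B cell coactivator OBF-1, fell from 6.96 and 7.11 to 5.05 and 4.74 (-2.14 ± 0.17; limma, adjusted p = 0.00054). Igll1 (0.65), Irf8 (1.19) and Cd24a (0.44), a gene that DN3 cells also express, made up the rest of those that rose. Igll1 lost its call without any single IkL/L array and Cd24a without DMSO replicate 1. Among the 11 not called, Pax5 lay between 4.94 and 5.33, Ebf1 between 4.05 and 4.14, Cd79a between 4.09 and 4.32 and Cd22 between 4.84 and 4.94. The mean of the list was 5.71 on both DMSO arrays and 6.16 and 6.20 under GSI. Without DMSO replicates 1 and 2 and GSI replicates 1 and 2 in turn 3, 4, 5 and 4 rose.

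**Figure D3:**
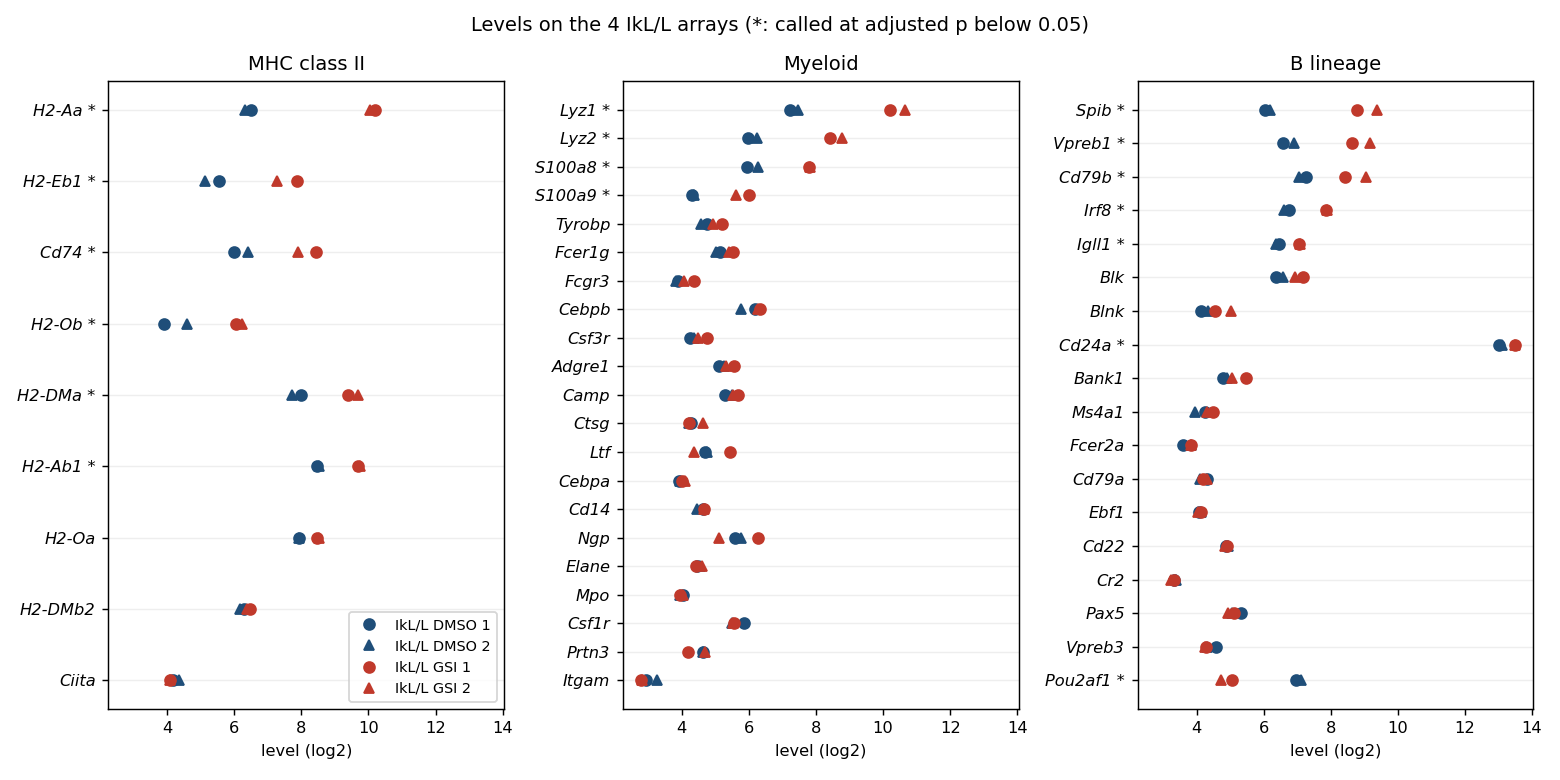
Log2 level of each measured MHC class II, myeloid and B lineage gene on the 4 IkL/L arrays, ordered by change; blue symbols are DMSO, red symbols GSI, and an asterisk marks a called gene. H2-Aa and Lyz1 move by more than 3 log2 units, while Mpo, Itgam, Pax5 and Ebf1 lie at or below 5.33 on all 4 arrays.

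Markers of the remaining cell types are set beside the 7.7% of all genes that rose and the 9.09% that fell. Of 16 natural killer and innate lymphoid genes 2 rose, the nuclear receptor gene Rora, from 4.94 and 4.82 to 6.71 and 6.63 (1.79 ± 0.15; limma, adjusted p = 0.00078), and the granule gene Nkg7 (1.57 ± 0.31). Nkg7 lost its call without either DMSO array or GSI replicate 2. Zbtb16, Eomes, Tbx21 and Ncr1 were among the 14 not called, and the list means were 5.02 and 4.90 under DMSO and 5.05 and 5.08 under GSI. Of 7 gamma-delta T cell genes Sox4 rose (0.66 ± 0.19) and Etv5 fell (-1.38 ± 0.30), and both calls were lost without DMSO replicate 1. The mean of these genes was 7.32 and 7.42 under DMSO and 7.65 and 7.38 under GSI. Of 8 erythroid genes Car2, a carbonic anhydrase gene, rose from 5.50 and 5.87 to 7.69 and 7.59 (1.95 ± 0.28; limma, adjusted p = 0.00309). The globin gene Hba-a1 lay between 3.82 and 4.12. Of 21 stromal genes none was called (limma; 1 was higher at an unadjusted p below 0.05), with a median of 0.34, and 15 were higher with the GAPDH covariate. Fstl1 (0.65 ± 0.71) and Thbs1 (0.73 ± 0.57) did not pass.

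Genes of cell death and stress moved in both directions. Of 16 genes of the BCL2 family and of cell death more widely 5 rose (31.2%) and 1 fell (6.2%), with a median of 0.06. Of all genes 7.7% rose and 9.09% fell. Bmf, a BH3-only killer gene, was at 8.54 and 8.61 under DMSO and at 10.49 and 10.88 under GSI (2.11 ± 0.18; 4.32-fold; limma, adjusted p = 0.00078). Mcl1, which protects thymocytes, was at 11.42 and 11.46 and then at 12.55 and 12.69 (1.17 ± 0.11; limma, adjusted p = 0.00092). Bid, another BH3-only gene, fell from 8.93 and 8.81 to 6.66 and 5.88 (-2.60 ± 0.37; limma, adjusted p = 0.00322). Killer and survival genes thus rose side by side, and one killer gene fell. Birc3 rose by 1.77 ± 0.27 and, like the former 3, was called whichever array was omitted. Bcl2l11, the gene of BIM (1.36 ± 0.32), and Bbc3, the gene of PUMA (1.11 ± 0.29), rose but lost their calls without either DMSO array or GSI replicate 2, Bbc3 also without WT DMSO replicate 1. In each of the first 3 of those fits 3 genes of the list rose.

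Of 19 p53 target genes 5 rose (26.3%), Cdkn1a among them, and 2 fell (10.5%), with a median of 0.10. Of all genes 7.7% rose and 9.09% fell. Ccng1 (0.96 ± 0.17) rose, and the nuclease gene Aen (-1.57 ± 0.35) and the kinase gene Plk3 (-0.71 ± 0.15) fell. Mdm2 (0.23) did not pass. Without DMSO replicates 1 and 2 and GSI replicates 1 and 2 in turn 1, 2, 4 and 2 of the list rose, and Aen and Plk3 lost their calls in all 4 fits. Of 20 genes of the ATF4 and amino acid response 4 rose (20.0%) and 4 fell (20.0%). Psat1, an enzyme of serine synthesis, fell from 11.66 and 11.46 to 9.85 and 9.13 (-2.07 ± 0.24; limma, adjusted p = 0.00152), as did Psph (-1.42 ± 0.26) and the proline synthesis gene Aldh18a1 (-1.07 ± 0.18). Pck2 (1.57 ± 0.25), Slc7a11 and Ddit3, the gene of the stress factor CHOP (1.36 ± 0.31), rose. Neither Asns (-0.10) and Phgdh (0.03), of asparagine and serine synthesis, nor the stress factor gene Atf4 (-0.55) was called (named after their values were seen). The numbers that rose were 2, 2, 4 and 1 and those that fell 2, 3, 3 and 2 without DMSO replicates 1 and 2 and GSI replicates 1 and 2. Of 22 immediate early and activation genes 1 rose, the NF-kappaB inhibitor gene Nfkbia (0.79 ± 0.13; limma, adjusted p = 0.00608), and 1 fell, Spred1 (-0.88 ± 0.19). Each is 4.5% of the list, below the 7.7% and 9.09% of all genes. Of the list 11 rose with the GAPDH covariate, and the call of Nfkbia was lost without GSI replicate 2 and that of Spred1 without any single IkL/L array.

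Of 23 Polycomb and NuRD genes, the latter including partners of Ikaros, 7 fell (30.4%) and 2 rose (8.7%), with a median of -0.27. Of all genes 9.09% fell and 7.7% rose. Mta3, a NuRD subunit gene, was at 9.61 and 9.54 under DMSO and at 11.15 and 11.87 under GSI (1.94 ± 0.23; 3.84-fold; limma, adjusted p = 0.00171). Ezh1, a histone methyltransferase of Polycomb, was at 8.15 and 8.34 and then at 9.33 and 9.85 (1.35 ± 0.22; limma, adjusted p = 0.00492). Mbd3 (-1.32 ± 0.35), Bmi1 (-0.74 ± 0.15) and Hdac2 (-0.74 ± 0.18) fell, and Ezh2, the paralogue of Ezh1 that dividing cells use, fell by 0.68 (named after its values were seen). Mta3 was called without each array in turn, Ezh1 lost its call without DMSO replicate 1, and 4 of the list fell without GSI replicate 1 and none (limma) without any of the other 3 IkL/L arrays, against 10 at an unadjusted p below 0.05 with all arrays.

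Outside the lists, the largest changes were named by rank. The deepest falls among them were those of Spsb4, a SOCS box protein gene, which was at 7.38 and 8.33 under DMSO and at 3.71 and 3.78 under GSI (-4.11 ± 0.36; 17.3-fold; limma, adjusted p = 0.0008), and of Bex6 (-3.70 ± 0.21; 13.0-fold). Dctd, which makes the precursor of thymidylate, fell from 7.66 and 7.63 to 4.36 and 3.89 (-3.52 ± 0.29), and Adk, adenosine kinase, from 11.33 and 11.29 to 8.85 and 7.84 (-2.96 ± 0.30). Both belong to nucleotide metabolism, although neither was on the list. Gfra1, the receptor gene for the growth factor GDNF, was at 11.19 and 11.10 and then at 8.14 and 8.33 (-2.91 ± 0.21; 7.49-fold). Bcat1, an enzyme of branched-chain amino acids (-2.97 ± 0.36), the pyrophosphatase gene Ppa1 (-2.86 ± 0.32), Ydjc (-3.33 ± 0.34) and the junction protein gene Afdn (-2.93 ± 0.23) completed this group. Their adjusted p in limma lay between 0.00024 and 0.00172, and each call was kept without each array in turn.

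The largest rises were led by Rasa4, a GTPase activator that turns RAS off, which was at 7.66 and 7.55 under DMSO and at 11.26 and 11.38 under GSI (3.72 ± 0.20; 13.2-fold; limma, adjusted p = 0.00017). H2-Aa and Ccr9 came next. Sh2d5 was at 3.47 and 3.99 and then at 6.97 and 7.52 (3.51 ± 0.25; 11.4-fold). Sstr2, a somatostatin receptor gene, was at 5.54 and 5.42 and then at 8.31 and 8.88 (3.11 ± 0.23; 8.66-fold), and Rgs18, a regulator of G protein signals, at 3.58 and 3.51 and then at 6.21 and 7.08 (3.09 ± 0.28). Only called genes without overlap between treatments entered this ranking, so their separation is no further support. Ncf1, a subunit gene of the phagocyte NADPH oxidase (2.91 ± 0.28), Card6 (2.97 ± 0.28), Lypd6b (2.96 ± 0.28), Zfp467 (3.10 ± 0.32) and Wdr78 (2.91 ± 0.27) were of like size, and each rise was called without each array in turn. For Wdr78 the other probe set of the gene had the opposite sign.

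Values taken from 1 probe set per gene could be larger than those averaged over all probe sets of the gene. The averaged log2 changes were 2.29 for Rasa4, 2.35 for H2-Aa, 1.99 for Lyz1, 1.27 for Mxd4, 1.02 for Bmf and 0.96 for Mta3, each still called. They were -2.01 for Cad and -1.48 for Adk, also called. In all 134 of the 160 called genes fixed to be named were called when averaged. Among those that were not, Ezh1 was at 0.34 (limma, adjusted p = 0.177), Themis at 0.64 (limma, adjusted p = 0.142) and Rbpj at 0.05. Averaged over probe sets, 2 rather than 5 cholesterol synthesis genes fell, 1 rather than 3 pre-T cell receptor genes and 2 rather than 5 p53 targets rose, and 4 rather than 7 Polycomb and NuRD genes fell. Of the 160 genes 41 moved by over 1.5-fold in this way and 35 with the GAPDH covariate, none of them to the opposite sign. With the covariate 122 of the 160 were called. Nop58 (-1.32), Rag1 (0.48), Cd4 (0.73) and Aen (-0.71) were among those that lost their call, Polr1b was at -1.56 and Ccne1 at -3.34, and Dtx1 (-4.74) and Myc (-2.86) remained called.

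The size of the response was compared between the genotypes in the same fit. The Y-linked gene Eif2s3y lay between 2.98 and 3.81 on the 4 WT arrays and between 9.47 and 10.45 on the 4 IkL/L arrays, and Uty between 2.85 and 3.54 and between 6.26 and 7.85. Xist, which is made from the inactive X chromosome, lay between 12.57 and 13.02 in WT and between 11.40 and 12.05 in IkL/L cells. The labels give no sex, and in every comparison of the genotypes sex and genotype cannot be told apart. The difference of the GSI responses passed for 8 genes (0.044% of those tested), and at an unadjusted p below 0.05 for 1089. Of the 8, Ccr9, Atp8b4, Rab44, Muc3 and Mctp1 had the more positive and Gm266, Exoc3l4 and 2810459M11Rik the more negative change in IkL/L cells. Atp8b4, the gene of a phospholipid flippase, was at 8.61 and 8.77 in IkL/L DMSO and at 11.67 and 11.96 in IkL/L GSI (3.12 ± 0.15), and changed by 1.26 in WT. Exoc3l4 was at 7.45 and 6.81 and then at 4.12 and 4.40 (-2.87 ± 0.22), while on the 4 WT arrays it lay between 3.97 and 4.27. Its level in treated mutant cells thus came near that of WT cells of either treatment. Those WT levels lay below the array medians of 5.25 to 5.33, so a fall in WT cells had little room to show. The count went to 0 without WT DMSO replicate 1 (1398 at an unadjusted p below 0.05) or IkL/L DMSO replicate 1 (627) and was between 1 and 5 without each of the other 6 arrays. Spsb4 changed by -0.62 in WT, and its difference between the genotypes did not pass (limma, adjusted p = 0.13). Rasa4 and Cdkn1a rose in WT cells too, by 1.5 and 1.64 (limma, adjusted p = 0.00974 and 0.0044), and their differences did not pass (limma, adjusted p = 0.0604 and 0.181). A gene called in one genotype and not the other is not shown to differ between them.

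**Figure D4:**
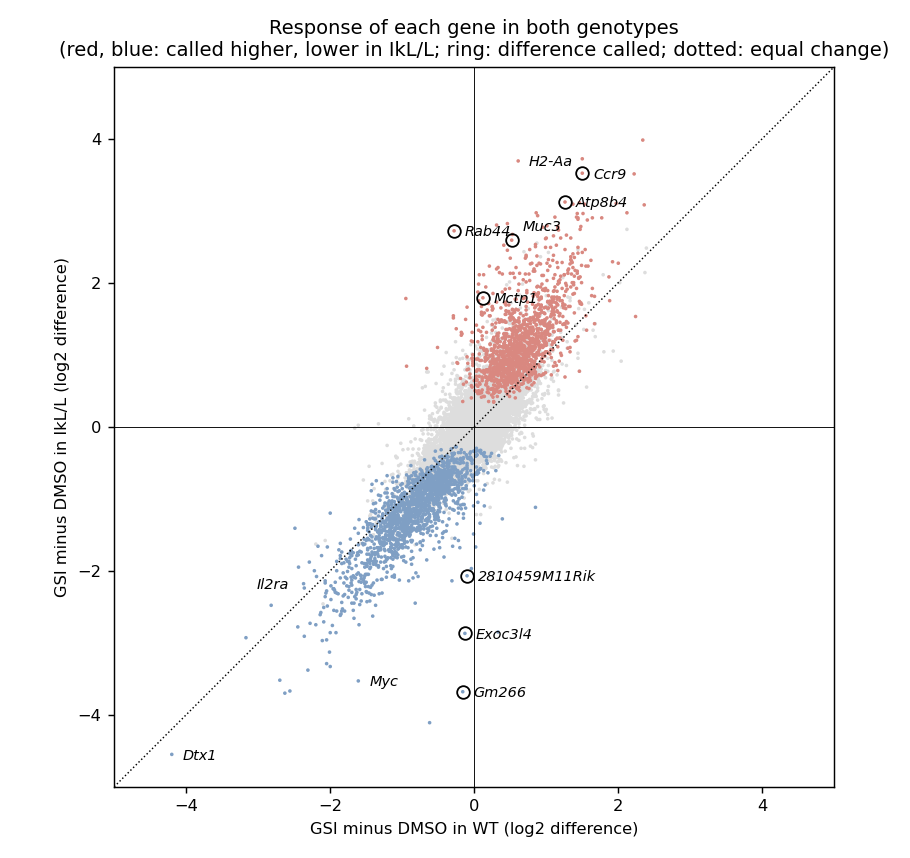
Log2 difference between GSI and DMSO of each gene in WT (horizontal axis) and IkL/L cells (vertical axis); red and blue points rose and fell in IkL/L cells, rings mark the 8 genes whose responses differed, and the dotted line is equal change. Dtx1 and Il2ra lie near the dotted line, and Gm266, Exoc3l4 and 2810459M11Rik lie near 0 in WT and below -2 in IkL/L cells.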

How the data were processed

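RNA of sorted DN3 cells was measured on 8 Affymetrix mouse arrays, 2 in each of 4 groups. The deposited log2 values of 45101 probe sets were made by the authors with RMA, per the submitters' processing notes. Its version and whether the 8 arrays were summarised alone are not given in the sources used here. Per the labels' protocols, RNA was amplified in 2 labelling cycles from amounts that differed between experiments and are not tied to samples. Precision is limited by having 2 arrays per group.

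Of the probe sets 34945 were matched to 1 gene, 932 to several, 9160 were not listed and 64 were controls. The probe set with the highest mean stood for each of 18193 genes. limma (version 3.58.1, R 4.3.3) fitted all 4 groups with a trended variance (4 residual and 4.11 prior degrees of freedom), and p-values were adjusted by Benjamini-Hochberg over all genes, with calls below 0.05. Tables and plots used Python 3.11.15 with pandas 2.3.3, numpy 2.4.6 and matplotlib 3.10.9. Of the 773 genes on 40 lists 706 were measured. The members and lists were chosen with earlier results of these data known. The genes named are a set of Notch targets and controls, the 15 largest increases and the 15 largest decreases among called genes without overlap between treatments, and of each list all called members where 6 or fewer, otherwise the 3 largest in each direction. Where fewer than 2 of a list were called, its 2 largest changes were named as not passing. Symbols that end in Rik or are numbered Gm genes were left out of the 2 rankings. Other genes were named after their values were seen. On simulated data for GSI minus DMSO in IkL/L cells, over 18193 genes, 53 of 100 genes changed by 1 log2 unit and 94 of 100 changed by 2 were recovered, with 5 false calls. No other genes changed, and the noise was drawn independently for each gene and array. Deviations shared between arrays were not simulated, so these rates need not hold for the data. The alternatives were another gene summary, filter, normalization, variance model, set of arrays, threshold, covariate or block, and leaving out each array.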

Additional observations from a re-analysis of the deposited data

Results flagged for a closer look

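The GSI response differed between the genotypes for 8 genes in limma's test of the difference itself, given here as the IkL/L change minus the WT change on the log2 scale. For Ccr9, a chemokine receptor gene, it was 2.02 ± 0.18 (SE; limma, adjusted p = 0.0277), with changes of 3.52 in IkL/L and 1.5 in WT cells. For the flippase gene Atp8b4 it was 1.87 ± 0.21 (limma, adjusted p = 0.048). Rab44, a small GTPase gene, was at 7.37 and 7.58 in IkL/L DMSO and at 10.13 and 10.27 in IkL/L GSI, while it lay between 8.29 and 8.86 on the 4 WT arrays, a difference of 3.0 ± 0.29 (limma, adjusted p = 0.0313). The mucin gene Muc3 reached 6.65 and 7.01 in IkL/L GSI and lay at or below 4.83 on the other 6 arrays, with a difference of 2.07 ± 0.22 (limma, adjusted p = 0.0462). Mctp1 had a difference of 1.67 ± 0.16 (limma, adjusted p = 0.0313). Gm266 was at 7.25 and 7.11 in IkL/L DMSO and at or below 3.77 on the other 6 arrays (-3.52 ± 0.24; limma, adjusted p = 0.00849). Exoc3l4 had a difference of -2.74 ± 0.31 (limma, adjusted p = 0.048), and 2810459M11Rik, at 6.0 and 6.24 in IkL/L DMSO and at or below 4.21 elsewhere, one of -1.97 ± 0.22 (limma, adjusted p = 0.0462). For the last 3 genes the IkL/L DMSO arrays alone stood high. On the 4 WT arrays these 3 genes lay at or below 4.27, below the array medians of 5.25 to 5.33. A fall under GSI in WT cells thus had little room to show. Averaged over its probe sets Gm266 had a difference of -1.83. No gene was called (limma) without WT DMSO replicate 1 (1398 at an unadjusted p below 0.05) or without IkL/L DMSO replicate 1 (627). The Y-linked genes Eif2s3y and Uty were higher on every IkL/L array than on every WT array, so sex and genotype cannot be told apart in these 8 differences.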

How the results depend on the processing

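The count of 3055 genes called in IkL/L cells went to 4705 with a crossed pairing of the replicate numbers as a block, 5087 with the stromal mean as a covariate and 1766 with a 2-fold minimum, and lay between 947 and 3860 when 1 array was left out. It was 2781 averaged over probe sets, 3307 after quantile normalization, 3455 after median centring, 3206 without a variance trend and 4523 with only the IkL/L arrays. The replicate block gave 4002. Same-numbered arrays correlated in their deviations from the group means with r of 0.781, 0.689 and 0.668 among 3 groups but -0.277, -0.146 and -0.207 with IkL/L GSI, so the numbers were not taken to pair the arrays, and the crossed pairing was chosen after seeing the data. The 8 genes that differed between genotypes became 24 with the replicate block, 20 with the crossed block, 2 with every probe set as a feature, with genes above the median level or without a trend, 56 with the stromal covariate, 64 with the GAPDH covariate and 0 to 5 with 1 array left out (limma; 627 to 1704 at an unadjusted p below 0.05). Without 1 array 123 to 330 list genes were called, where the fit of all arrays called 286, and 87 to 160 of the 160 called named genes. With the replicate block 14 interferon-stimulated genes rose. Signs turned for genes that had not passed: with the GAPDH covariate Epor was at 0.03, Klf1 at 0.13, Ncstn at -0.11, Notch1 at -0.28 and Notch3 at -0.60. Notch1 was at -0.20 averaged over probe sets, and -0.03 after median centring. Without 1 array Notch1 lay between -0.05 and 0.10 and Notch3 between -0.01 and 0.35, both lowest without IkL/L DMSO replicate 1. The cause was not tested.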
